A study of Mus musculus with 27 samples.

Results

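The proteasome subunit genes were taken as every gene of the deposited expression table whose symbol starts with Psma, Psmb, Psmc or Psmd and a digit, without the interferon-inducible genes Psmb8 and Psmb9. The rule found 38 of 26264 symbols, and no expression value was used to choose them. Of these, 36 had a mean of at least 1 FPKM (fragments scaled by gene length and by the total of counted fragments) over all libraries used and entered the tests, among 12976 genes tested in all. Psma8 and Psmb11 stayed below that level. The symbol rule also takes in Psmc3ip, which encodes a recombination factor and no subunit, so 35 of the 36 tested genes encode subunits or assembly chaperones.

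The proteasome is the main protease of the cytosol and nucleus, and it breaks down proteins that carry chains of ubiquitin. Its barrel-shaped core is built of outer rings of alpha subunits, which gate the entry, and inner rings of beta subunits, some of which cut peptide bonds. A regulatory particle caps the barrel: a ring of ATPases unfolds the substrate, and further base and lid subunits bind ubiquitin, remove it and hold the particle together. In neurons the proteasome turns over synaptic proteins, and impaired proteasome activity is a known feature of brains with Alzheimer's disease. Cells keep the subunits in proportion partly by transcribing their genes together, for which transcription factors of the Nfe2l1 family are known.

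RNA came from the cortex of female 5xFAD mice aged 16 weeks, a transgenic line used to model amyloid deposition. All mice, controls included, carried the transgenes, and no mice without them were analysed here. R55 and R33, thiophene thioureas used to stabilize the retromer sorting complex, were given at 10 mM in 500 nL by microinjection into the lateral parietal association cortex of one hemisphere, and the vehicle was the same DMSO and beta-cyclodextrin solution without drug. Blocks of cortex were taken 24 h later from the injected and from the contralateral hemisphere. The libraries used were 8 from 4 vehicle mice (AH, J, L and M), 9 from 5 R33 mice (AD, AE, K, N and O) and 10 from 5 R55 mice (AA, AB, P, Q and R), with AE represented by its injected hemisphere only. The depth was 20187307 to 38077027 gene-assigned fragments a library. In bulk tissue, fewer cells of a type and less RNA per cell cannot be told apart.

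Neuronal markers were abundant in every mouse, as cortex should show, with a summed level of 3384 to 4213 FPKM over 8 genes in vehicle mice, 3565 to 4255 in R33 mice and 3622 to 4455 in R55 mice. Summed markers of microglia ran from 352.4 to 516.3, from 320.4 to 625.1 and from 294.7 to 680.7 FPKM in the same order. Those of endothelium ran from 36.35 to 73.64, from 26.76 to 75.91 and from 28.63 to 91.62 FPKM, and those of striatum from 47.39 to 119.9, from 45.12 to 175.3 and from 41.43 to 71.11 FPKM. Astrocyte sums ran from 565.8 to 1058, from 728.5 to 1362 and from 689.1 to 1027 FPKM. Oligodendrocyte sums ran from 1148 to 1824, from 1290 to 2187 and from 1159 to 1911 FPKM. Blood leukocyte sums ran from 2.064 to 5.737, from 2.23 to 8.094 and from 3.848 to 8.82 FPKM. The ranges of the treatments overlapped for each of these lists, and the part of cell composition in the results was not tested. Hba-a1, Hba-a2, Hbb-bs and Hbb-bt, which encode hemoglobin chains, were under 0.05 FPKM in every library. With Alas2, the other listed marker of red blood cells, the sum ran from 1.325 to 1.98, from 1.392 to 5.62 and from 1.318 to 4.87 FPKM. Alas2 was higher after R55 by 0.552 on the log2 scale in the limma fit described below. Its unadjusted p was under 0.05, as for 4.71% of all tested genes in the higher direction, but its adjusted p was not.

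The genes lie on 16 chromosomes, and their exons in GENCODE release vM39 on GRCm39, the build of the alignment, overlap exons of another gene on the same strand for 2 (Psmb5 with Mir686, Psmd1 with Gm21972) and on the opposite strand for 16. The libraries were made with a stranded kit, but whether strand was used in counting is not given in the sources used here. The tested members were short, 731 to 3256 bp with a median of 1446 bp against 3149 bp over all tested genes, where length is the one implied by the deposited FPKM. This matters below, because some libraries differed from the rest by gene length.

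The promoter table of RefSeq on GRCm38.p6 held 31 of the 38 genes, as windows from 250 bases before to 50 bases after the transcription start. The windows of 6 genes are shown here, cut to the 150 bases before the start and read 5′ to 3′ in the direction of the gene, because Psmd12, Psmd13 and Psmc1 had the smallest p-values after R55, Psmc5 and Psmb10 differed between mice by their label, and Psmb5 is the subunit with chymotrypsin-like activity that proteasome inhibitors target. They lie at chr11:107479378-107479527 (plus strand), chr7:140882244-140882393 (plus strand), chr12:100110052-100110201 (plus strand), chr14:54617996-54618145 (minus strand), chr11:106256035-106256184 (plus strand) and chr8:105938393-105938542 (minus strand) of that build. Capitals mark a match to one of the 3 patterns described after the sequences.
Psmd12: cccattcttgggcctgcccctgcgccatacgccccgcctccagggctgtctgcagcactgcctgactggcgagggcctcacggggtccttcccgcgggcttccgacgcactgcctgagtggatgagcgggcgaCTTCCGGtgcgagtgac
Psmd13: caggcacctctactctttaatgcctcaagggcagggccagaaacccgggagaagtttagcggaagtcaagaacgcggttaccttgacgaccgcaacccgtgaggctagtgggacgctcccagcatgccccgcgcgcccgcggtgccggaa
Psmc1: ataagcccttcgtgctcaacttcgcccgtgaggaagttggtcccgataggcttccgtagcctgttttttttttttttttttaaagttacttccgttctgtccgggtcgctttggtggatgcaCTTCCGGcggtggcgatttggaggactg
Psmb5: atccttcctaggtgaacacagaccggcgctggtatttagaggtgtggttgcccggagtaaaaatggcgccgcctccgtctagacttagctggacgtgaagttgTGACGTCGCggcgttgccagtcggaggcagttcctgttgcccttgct
Psmc5: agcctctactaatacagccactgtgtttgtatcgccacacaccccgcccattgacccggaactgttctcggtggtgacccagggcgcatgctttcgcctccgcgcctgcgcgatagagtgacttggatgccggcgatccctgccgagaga
Psmb10: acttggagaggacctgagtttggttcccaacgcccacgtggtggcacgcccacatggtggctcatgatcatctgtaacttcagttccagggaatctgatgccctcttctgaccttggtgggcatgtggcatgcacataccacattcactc

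Each window was searched on both strands for TGACNNNGC, the core of the antioxidant response element that Nfe2l1 and its relatives bind, for CCAAT, the element of NF-Y, and for CCGGAAG, an element of ETS factors. The ETS pattern was held by 11 of 31 proteasome genes (35.5%) and by 8.9% of all 32851 windows of the table, the widest gap of the 3 patterns. The shares are not quite alike. A proteasome gene counts if any of its windows matches, and 2 of the 31 have 2 windows, while the background is counted by window. The 11 genes were Psma6, Psmc1, Psmc2, Psmc3ip, Psmc6, Psmd2, Psmd4, Psmd6, Psmd11, Psmd12 and Psmd13, so that 9 of them belong to the regulatory particle. TGACNNNGC was in 5 genes (16.1%, against 12.4% of all windows), namely Psmb5, Psmb6, Psmc6, Psmd9 and Psmd12. CCAAT was in 13 (41.9%, against 37.4%). In Psmd13 the match of CCGGAAG crosses the start and is not in capitals above, in Psmd12 that of TGACNNNGC and in Psmc1 that of CCAAT lie further upstream than the bases shown, and Psmc5 and Psmb10 held none of the 3 patterns. A match is a match of letters, and no binding was measured.

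Most proteasome genes were expressed above the level of the median tested gene in cortex, and the highest tested member exceeded the lowest 78.2-fold. The median member had a mean of 55.28 FPKM over the 14 mice (each mouse the mean of its hemispheres), against 9.311 FPKM for the median tested gene. The coefficient of variation over mice had a median of 9.56% and ran from 3.97% for Psmd1 to 20.3% for Psmb10, against a median of 11.6% over all tested genes. Levels here are FPKM, which are per length and can be set side by side between genes. Ordered by mean level, neighbouring genes had overlapping ranges over mice in 32 of 37 pairs, and every neighbouring pair among the top 32 genes, from Psmc5 down to Psmd11, overlapped.

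**Figure D1:**
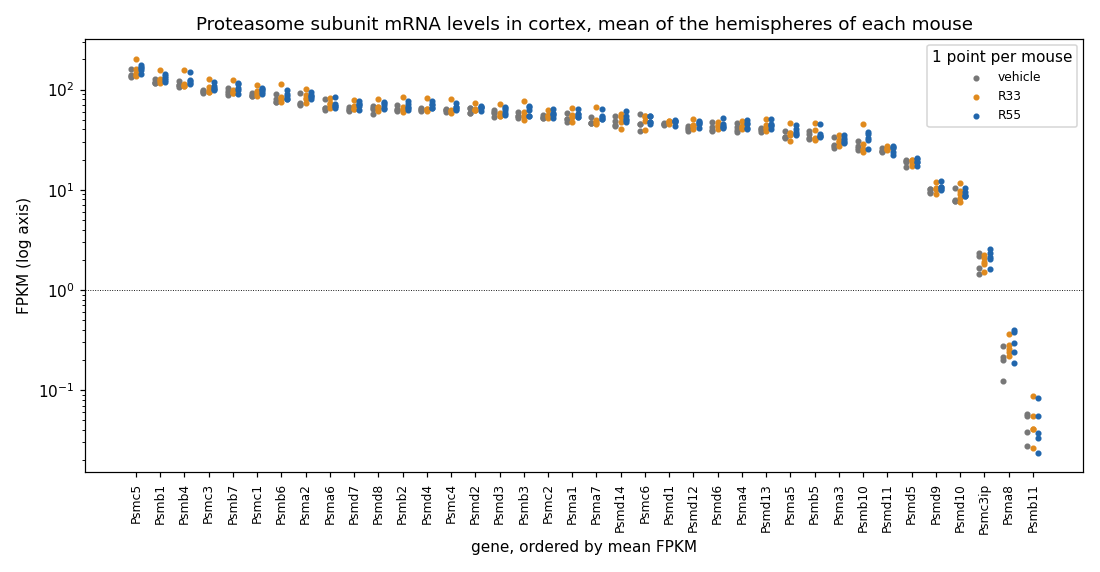
Level of each of the 38 genes, on a logarithmic FPKM axis, with 1 point per mouse (mean of its hemispheres) colored by treatment, in the order of the mean over mice. The dotted line is the minimum of 1 FPKM for testing, and the last 3 genes in the order are Psmc3ip (1.983 FPKM), which matched by symbol only, and the untested subunits Psma8 (0.262 FPKM) and Psmb11 (0.0473 FPKM).

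The 6 ATPases of the regulatory particle, which form the ring that unfolds substrates, had means from 49.06 to 155.0 FPKM with a median of 79.61. Psmc5 was the highest proteasome gene of all, at 134.8 to 204.2 FPKM over mice, and Psmc6 the lowest ATPase, at 38.72 to 57.72 FPKM. The ring holds each ATPase in equal number, but the ranges of Psmc5 and Psmc6 mRNA over mice did not overlap.

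The 7 constitutive beta subunits had a median of 85.27 FPKM. Psmb1, a structural subunit, was the highest at 126.8 ± 11.9 FPKM (SD, n = 14 mice). Psmb5 was the lowest at 35.98 ± 4.76 FPKM, below Psmb6 (85.27 FPKM), which carries the caspase-like site, and Psmb7 (100.5 FPKM), which carries the trypsin-like site. No mouse had more Psmb5 than any mouse had of Psmb6 or Psmb7. Psmb10, the immunoproteasome counterpart of Psmb7, measured 29.97 ± 6.09 FPKM and had the widest relative spread over mice of the tested members. Psmb11, the beta subunit of thymic epithelium, was at 0.0473 ± 0.0196 FPKM, which rests on 0 to 12 fragments per library.

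The 7 tested alpha subunits had a median of 51.51 FPKM, from Psma3 at 30.59 ± 2.92 to Psma2 at 83.37 ± 9.37 FPKM (SD, n = 14). Psma8, the alpha subunit of the testis, was at 0.262 ± 0.0766 FPKM on 3 to 24 fragments per library. The 3 base subunits that are not ATPases, the scaffold subunits Psmd1 and Psmd2 and the ubiquitin receptor Psmd4, ran from 47.06 to 66.91 FPKM. The 8 lid subunits had a median of 47.23 FPKM, from Psmd11 at 25.29 ± 1.43 to Psmd7 at 67.75 ± 5.49 FPKM, and Psmd14, the deubiquitinase of the lid, lay between them at 50.58 ± 5.73 FPKM. The 3 chaperones that assemble the regulatory particle base and do not stay in the finished complex were the lowest tested members of the complex and its assembly, Psmd5 at 19.04, Psmd9 at 10.34 and Psmd10 at 9.022 FPKM.

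After R55, the mRNA levels of proteasome subunits were compared with vehicle in 1 fit of all 27 libraries, with treatment and hemisphere as factors. Fold changes are log2 changes of FPKM + 1 with the standard error (SE) of that limma fit, and a gene is called at a Benjamini-Hochberg adjusted p under 0.05. All 36 tested members had a positive log2 fold change, with a median of 0.13 (median SE 0.0788), but 0 were called and the smallest adjusted p was 0.545. Over all tested genes 0.00771% were called, 60.2% had a positive log2 fold change and the median was 0.026. At an unadjusted p under 0.05 there were 3 members, all higher, where 4.71% of all genes were, and the 95% interval held 0 for the other 33. With limma voom on the recovered fragments, 0 members were called and 3 were at an unadjusted p under 0.05, against 1 and 1112 of all 12976 genes.

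Psmd12, a scaffold subunit of the lid, measured 40.1, 43.0, 41.1 and 39.1 FPKM in vehicle mice AH, J, L and M. In R55 mice AA, AB, P, Q and R it measured 47.4, 46.0, 45.8, 48.9 and 41.6 FPKM. The groups overlapped through mouse R alone, which lay below vehicle mouse J. The log2 fold change was 0.16 (SE 0.0585, 95% interval 0.0425 to 0.283, unadjusted p = 0.00989, adjusted p = 0.545), a change of 11.9%.

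Psmd13, another lid subunit, measured 40.5, 41.8, 39.2 and 37.6 FPKM in the same vehicle mice and 45.6, 44.6, 43.1, 50.5 and 40.6 FPKM in the R55 mice. Here 4 of the 5 R55 mice were above every vehicle mouse. The log2 fold change was 0.16 (SE 0.0711, unadjusted p = 0.0306, adjusted p = 0.571).

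Psmc1, an ATPase whose tail opens the core gate, measured 92.4, 87.9, 87.3 and 86.9 FPKM after vehicle and 102.0, 98.5, 94.3, 103.5 and 91.3 FPKM after R55. Again mouse R fell within the vehicle range and the other 4 mice above it. The log2 fold change was 0.14 (SE 0.0629, unadjusted p = 0.0371, adjusted p = 0.579). With the 2 hemispheres of a mouse tied by a modelled correlation (replicate block), the number of members at an unadjusted p under 0.05 was 1, Psmd12, in place of 3. Over all 12976 genes it was 519 in place of 1096.

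The largest log2 fold change after R55 was that of Psmb10, 0.23 (SE 0.127, 95% interval -0.0275 to 0.496, unadjusted p = 0.0773, adjusted p = 0.601). It measured 30.8, 25.9, 27.5 and 24.7 FPKM in vehicle mice and 37.4, 35.8, 25.5, 32.6 and 31.1 FPKM in R55 mice, so that mouse P lay within the vehicle range. The smallest was that of Psmd11, a lid subunit that stabilizes the whole complex, at 0.028 (SE 0.0503). Psmd11 measured 23.9, 24.2, 26.1 and 24.4 FPKM after vehicle and 26.8, 27.1, 25.9, 23.7 and 22.4 FPKM after R55, with the R55 mice on both sides of the vehicle range. No member had every R55 mouse above every vehicle mouse, while 1.0% of all tested genes did.

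By role, the median log2 fold change after R55 was 0.14 for the alpha ring, 0.12 for the constitutive beta ring, 0.12 for the ATPases, 0.095 for the other base subunits, 0.13 for the lid and 0.13 for the assembly chaperones. Psmb10, the immunoproteasome subunit among the members, had the value of 0.23 given above. Of 6293 other tested genes in the members' range of length, 731 to 3256 bp, 77.2% had a positive log2 fold change, with a median of 0.0643. Within that wide range they were not matched to the members, whose median length was 1446 bp. The gap between the medians is therefore not free of gene length. With the length trend removed, as described below, the median of the members was 0.0361.

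**Figure D2:**
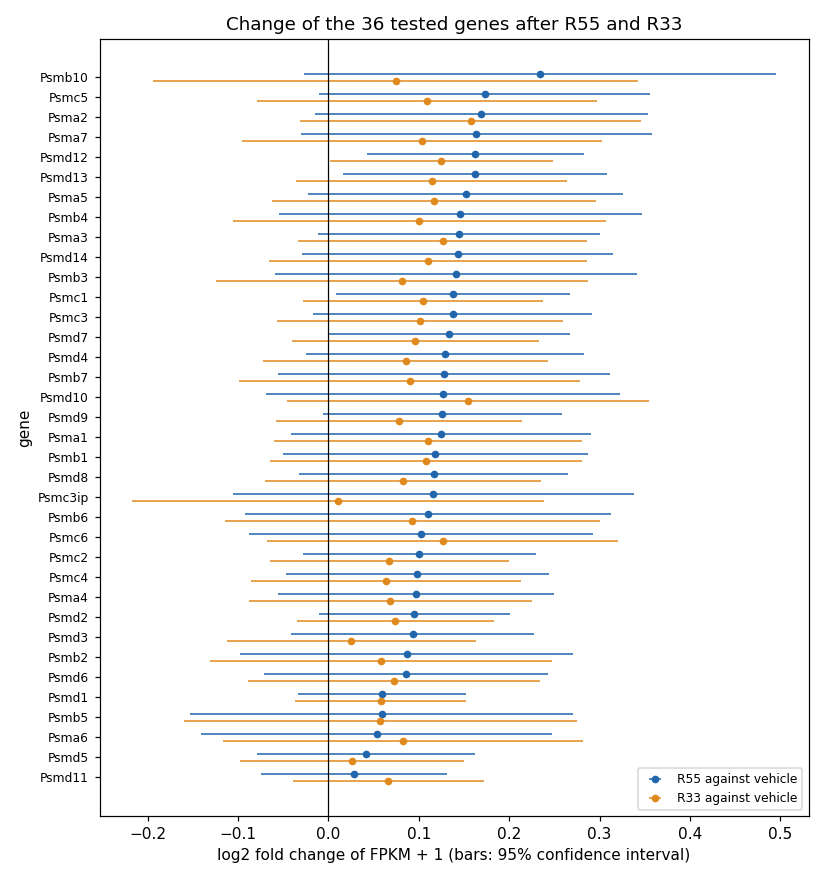
Log2 fold change of FPKM + 1 for each of the 36 tested genes after R55 (blue) and R33 (orange) against the same vehicle mice, with bars for the 95% confidence interval, ordered by the R55 value. All points lie to the right of 0, and the intervals of 33 genes for R55 and 35 for R33 hold 0.

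R33, given at the same dose and time, was compared with the same vehicle libraries, so the values of both drugs share their controls. All 36 members again had a positive log2 fold change, with a median of 0.088 (0.010 for Psmc3ip to 0.16 for Psma2). Of all tested genes 57.5% were positive, and of other genes in the members' range of length 72.6%, with a median of 0.051. Called were 0 members (0% of all genes, smallest adjusted p of a member 0.834). At an unadjusted p under 0.05 there was 1 member, Psmd12, where 3.19% of all genes were higher. That count was 0 with the replicate block, with 1 value per mouse, with the length trend removed, with the label letters as a covariate and with only the compared treatments. Psmd12 measured 50.4, 40.6, 44.3, 43.3 and 43.1 FPKM in R33 mice AD, AE, K, N and O, and its log2 fold change was 0.13 (SE 0.0600, unadjusted p = 0.0469, adjusted p = 0.834).

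Psma2, an alpha subunit, measured 73.8, 92.5, 69.7 and 71.4 FPKM in vehicle mice and 102.3, 81.3, 82.4, 88.3 and 73.7 FPKM in R33 mice. The highest value was that of mouse AD and the vehicle mouse J exceeded all R33 mice but AD. The log2 fold change was 0.16 (SE 0.0919, unadjusted p = 0.0981, adjusted p = 0.850). Without mouse AD, 26 of 36 members were higher after R33 and the median log2 fold change was 0.0253.

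Set directly against R33, R55 gave a higher level in 32 members and a lower one in 4, with a median log2 difference of 0.0333. Of all tested genes 53.4% were higher, and of other genes in the members' range of length 59.0%, with a median of 0.0126. None of the 36 members and 0% of all genes were called. At an unadjusted p under 0.05 there were 0 members, where 149 of 12976 genes were in either direction and 0.732% were higher. The largest difference was that of Psmb10 at 0.16 (95% interval -0.0940 to 0.413) and the lowest that of Psmd11 at -0.038 (95% interval -0.138 to 0.0618). The 95% intervals of all members held 0 and ran from -0.217 to 0.413. In these 36 comparisons the compounds, both thiophene thioureas, were not told apart, and a difference of the size of the intervals was not excluded. The fit behind these intervals counts both libraries of a mouse separately, though a mouse received 1 drug, so larger differences were not excluded either. With the replicate block, 55 of all 12976 genes were at an unadjusted p under 0.05 in place of 149. The median difference of the members rested on single mice. Without R33 mouse AD the median was 0.0956 with 6 members at an unadjusted p under 0.05, as were 1338 of all 12976 genes in that fit. Without R55 mouse Q the median was -0.000128.

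The injected hemisphere was compared with the contralateral one, which served as an internal control. Over all treatments, 16 members were higher and 20 lower on the injected side, with a median log2 difference of -0.0016, and 0 were called (0% of all genes). At an unadjusted p under 0.05 there were 0 members, where 450 of 12976 genes were in either direction and 1.46% of all genes were higher. The 7 alpha subunits all had negative values, from -0.057 for Psma7 (SE 0.0769, unadjusted p = 0.467) to -0.0020. Psmd11 had the highest value, 0.064 (SE 0.0409, unadjusted p = 0.127). With mouse as a fixed block the median was 0.0044 and 0 members were called. By treatment, on the injected side 30 members were higher and 6 lower in vehicle mice (median log2 difference 0.0316). The counts were 30 and 6 in R33 mice (0.0518) and 5 and 31 in R55 mice (-0.0768). In each, 0 members were called and 0 were at an unadjusted p under 0.05. Of all 12976 genes, 140, 368 and 475 were at that level in the same order. Other genes in the members' range of length were higher on the injected side in 63.4%, 58.2% and 25.4% of cases.

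Within the injected hemisphere, R55 against vehicle gave a median log2 fold change of 0.076, with 35 members higher and 1 lower and 0 called (0% of all genes). Of all tested genes 54.8% were higher, and of other genes in the members' range of length 59.5%, with a median of 0.0188. At an unadjusted p under 0.05 there were 0 members, where 107 of 12976 genes were in either direction and 0.339% were higher. Within the contralateral hemisphere, which received no drug directly, the median was 0.18 with 36 members higher. Of all tested genes 60.9% were higher on that side, and of other genes in the members' range of length 81.2%, with a median of 0.11. There 0 members were called in the limma fit (0.0231% of all genes), and 3 were at an unadjusted p under 0.05 (6.65% of all genes higher), namely Psmd9 at 0.20 (SE 0.0904, unadjusted p = 0.0326, adjusted p = 0.426), Psmd13 at 0.23 (SE 0.103, unadjusted p = 0.0361, adjusted p = 0.430) and Psmd12 at 0.18 (SE 0.0861, unadjusted p = 0.0461, adjusted p = 0.444). The test of the difference between hemispheres called 0 members, with 33 of 36 lower on the injected side and a median of -0.10. The other genes in the members' range of length had a median of -0.095 in that test. The median of the members was 0.0358 with the length trend removed, 0.00336 without mouse Q and -0.0238 without the contralateral library of Q. Without the contralateral library of mouse Q the contralateral median was 0.0903 and 0 members were at an unadjusted p under 0.05. With each mouse left out in turn that count ran from 0 to 16, with 16 without R55 mouse R, 14 without R33 mouse AD, 9 without vehicle mouse J and 0 without vehicle mouse AH or M or R55 mouse AB or Q. The count over all 12976 tested genes moved too, from 1451 with all mice. It was 1865 without R, 2202 without AD and 2243 without J. Without AH, M, AB and Q it was 1399, 1186, 974 and 914.

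The mean log2(FPKM + 1) of the 36 tested genes in a library shows which libraries carried these values. This mean is called the complex level below, but it averages mRNA and no assembled complex was measured. It also takes in Psmc3ip and the assembly chaperones, which are not subunits of the finished complex. It was 5.523 to 5.610 in the injected and 5.457 to 5.660 in the contralateral libraries of vehicle mice, 5.534 to 6.036 and 5.554 to 5.682 after R33, and 5.543 to 5.713 and 5.430 to 6.015 after R55. The injected library of R33 mouse AD (6.036) and the contralateral library of R55 mouse Q (6.015) stood far above the other 25, all of which were at or below 5.713. The other hemisphere of the same mice was at 5.682 and 5.543. By mouse, vehicle AH, L and M (5.504 to 5.514) had the lowest means and vehicle J (5.635) lay among the R55 mice (5.548 to 5.779).

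**Figure D3:**
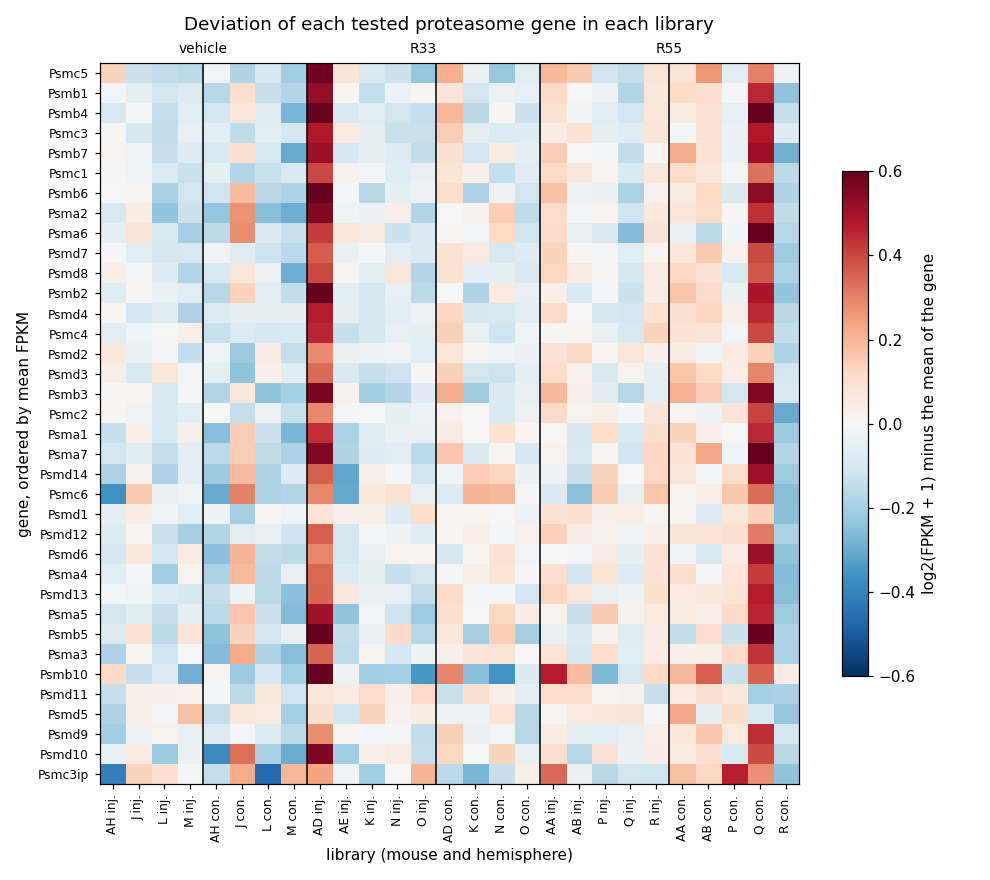
Deviation of log2(FPKM + 1) from the mean of each gene over the 27 libraries (red higher, blue lower, color scale ended at -0.6 and 0.6), with genes as rows in the order of level and libraries as columns grouped by treatment and hemisphere. The injected library of AD and the contralateral library of Q are red in most rows, with Psmd11 and Psmd5 blue in the library of Q.

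These libraries also stood apart by gene length. In each library the deviation of all 12976 tested genes from their mean was fitted on log2 gene length, and a negative slope means that short genes read high. The slope was -0.227 in the injected library of AD and -0.175 in the contralateral library of Q, the lowest of the 27, and lay between -0.0608 and 0.0649 in the others. The contralateral library of R55 mouse R, with the lowest complex level (5.430), had a slope of -0.0011, so that it did not follow the order of the rest.

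**Figure D4:**
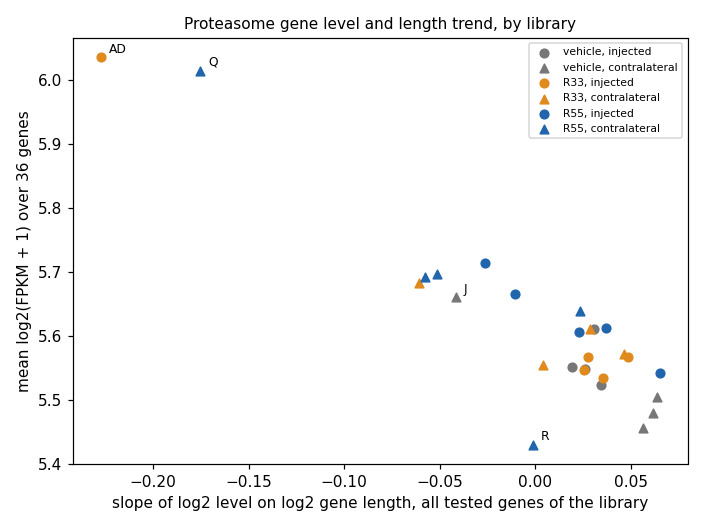
Mean log2(FPKM + 1) of the 36 genes against the slope of log2 level on log2 gene length over all tested genes, with 1 point per library, colored by treatment and shaped by hemisphere. The libraries of AD (injected) and Q (contralateral) are at the upper left with slopes of -0.227 and -0.175, and most other points fall along a line from upper left to lower right.

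With the trend on length removed from each library by a lowess curve, the median log2 fold change of the members after R55 was 0.0361, with 30 higher and 6 lower, and 1 member, Psmd12, was at an unadjusted p under 0.05 (2.99% of all genes higher). With the replicate block on these values that count was 0, against 352 of all 12976 genes. After R33 the median of the members was 0.0214, with 28 higher and 8 lower. Both medians were smaller than on the deposited values, and 0 members were called for either drug. On these values the complex level of vehicle mice ran from 5.585 to 5.602 and that of R55 mice from 5.572 to 5.676, with 4 of the 5 R55 mice above all vehicle mice. In the injected hemisphere alone it was 5.572 to 5.613 after vehicle and 5.636 to 5.666 after R55, which do not overlap. How often averages of other genes part in this way was not counted, and 0 of 12976 genes were called there on these values. After R33 the complex level on the injected side was 5.557 to 5.666, which overlaps both ranges. In the contralateral hemisphere it was 5.557 to 5.615 after vehicle and 5.491 to 5.717 after R55, and the R55 libraries lay below, within and above the vehicle range. Psmd12 was the single member whose injected R55 libraries all lay above all injected vehicle libraries on these values, as did 0.401% of all tested genes.

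**Figure D5:**
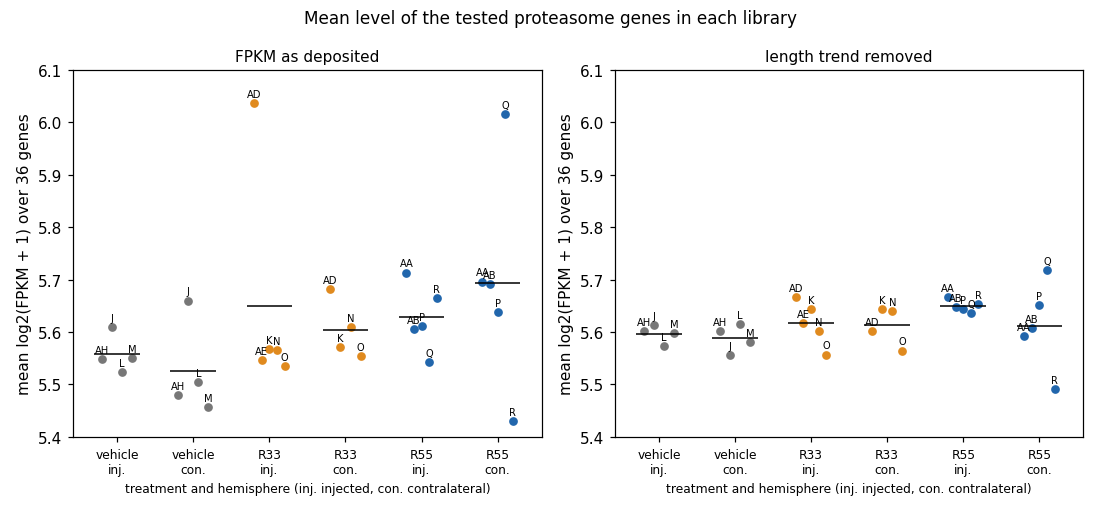
Mean log2(FPKM + 1) of the 36 tested genes in each library, labelled by mouse, with a line for the mean of each group, as deposited (left) and after the trend on gene length was removed (right). On the left AD (injected, R33) and Q (contralateral, R55) are above 6.0, and on the right all 27 libraries lie between 5.491 and 5.717.

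The count of members at an unadjusted p under 0.05 after R55 depended on these libraries. Without the contralateral library of Q it was 1 of 36 (870 of 12976 genes in the same fit, 3.79% in the higher direction). Without the injected library of AD, which belongs to the R33 group and enters this comparison through the shared estimate of the spread, it was 14 of 36 (1611 of 12976 genes in the same fit, 7.36% in the higher direction). Without that library and the contralateral library of Q it was 7 of 36 (1322 of 12976 genes, 5.77% in the higher direction), with 34 members higher, a median log2 fold change of 0.0805 and a smallest adjusted p of 0.283. These choices were made after the data were seen, and 0 members were called in any of the 3.

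Members varied together between libraries beyond the group means. Over 630 pairs, the correlation of residuals from the 6 group means had a median of 0.738 over 27 libraries, and 72.5% of pairs were above 0.5. The closest pair was Psmb1 and Psmb6 (r = 0.973). Members correlated with other tested genes at a median of 0.107, or 0.334 with other genes in their range of length. Psma7 was the most typical member, with a median r of 0.862 to the others, while Psmd11 (-0.154) and the chaperone Psmd5 (0.154) were the least. With the length trend removed the median over pairs was 0.272, with 23.7% above 0.5, against -0.00105 with other genes in the length range, and the closest pair was Psmb10 and Psmc5 (r = 0.877). These correlations share library, depth and length effects and are descriptions.

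Psmb10 and Psmc5 were also the members that differed by the label of the mouse. Mice carry labels of 1 letter (9 mice) or 2 letters (5 mice: vehicle AH, R33 AD and AE, R55 AA and AB), and what the label stands for is not given in the sources used here. With treatment and hemisphere in the fit, 2 members were called between the label groups, where 19.1% of all genes were called, and 9 were at an unadjusted p under 0.05 in the higher direction, where 16.1% of all genes were. In the lower direction 1 member was, where 2302 of 12976 genes were.

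Psmb10 measured 30.8 FPKM in vehicle mouse AH and 24.7 to 27.5 in the other vehicle mice, 45.1 and 28.7 in R33 mice AD and AE and 24.1 to 25.3 in the others, and 37.4 and 35.8 in R55 mice AA and AB and 25.5 to 32.6 in the others. Within each treatment the mice with 2 letters were above those with 1 letter. The log2 difference was 0.39 (SE 0.0820, adjusted p = 0.00277), or 31.0%. Psmc5 measured 160.2 against 134.8 to 140.5 FPKM, 204.2 and 161.6 against 135.6 to 146.0 FPKM, and 168.9 and 177.6 against 143.9 to 164.3 FPKM in the same order, again with no overlap within a treatment. Its log2 difference was 0.27 (SE 0.0583, adjusted p = 0.00354). Both genes are named because they were called, as were 19.1% of all genes. The share of all genes without overlap by label within each treatment was not counted.

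Psmb10 and Psmc5 were called in each of the 14 fits that left out 1 mouse, with the mouse as a modelled correlation (adjusted p = 0.0133 and 0.0171) and with 1 value per mouse (adjusted p = 0.0371 and 0.0358). With the length trend removed, 6 members were called (23.8% of all genes), the same pair and Psmb3, Psmc6, Psmd6 and Psmd14. Without R55 mouse Q, 10 were called (22.8% of all genes). Microglia markers were higher in mice with 2-letter labels, 5 of 6 called with a median log2 difference of 0.429 and a summed level of 510.1 to 680.7 against 294.7 to 548.4 FPKM. Endothelial markers were lower, 5 of 5 called with a median of -0.99 and a summed level of 26.76 to 36.35 against 56.84 to 91.62 FPKM. Alas2 was higher by 0.636 and called. Their part in the difference of Psmb10 and Psmc5 was not tested.

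The other genes of the pathway comprised 42 listed genes, of which 41 were tested. After R55, 30 were higher and 11 lower with a median log2 fold change of 0.0595, and 0 were called or at an unadjusted p under 0.05. After R33, 27 were higher and 14 lower, with 0 at an unadjusted p under 0.05. All 5 core assembly factors had positive values after R55 (median 0.136), among them Psmg3 at 0.21 (SE 0.105, unadjusted p = 0.0572). Nfe2l2, a stress-induced transcription factor of subunit genes, was at 0.24 (SE 0.128, unadjusted p = 0.0720), and its relative Nfe2l1 at 0.054 (SE 0.0590, unadjusted p = 0.365). Ecpas and Psme4, which bind assembled proteasomes, had the lowest p-values among the genes with negative fold changes, at -0.083 (unadjusted p = 0.0853) and -0.11 (unadjusted p = 0.119). Between hemispheres 1 of the 41 was at an unadjusted p under 0.05, Ddi2, the protease that activates Nfe2l1, which was higher on the injected side by 0.15 (SE 0.0694, unadjusted p = 0.0402, adjusted p = 1.0 in the limma fit).

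Between the label groups, 11 of the 41 were called, where 19.1% of all genes were. These calls, and those of the marker lists above, come from the fit that counts both libraries of a mouse separately, though the label belongs to the mouse. Over all 12976 genes the calls fell from 2477 to 1345 with the mouse as a modelled correlation. With 1 value per mouse they fell to 741. Values of the genes named next are from the first of these fits only. Psmb8 and Psmb9, the inducible catalytic subunits that replace Psmb5 and Psmb6 in immunoproteasomes with Psmb10, averaged 7.919 and 3.97 FPKM over mice and were higher in mice with 2-letter labels by 0.77 (SE 0.196, adjusted p = 0.00914) and 0.45 (SE 0.161, adjusted p = 0.0495) on the log2 scale. Psme1, a subunit of the activator that partners with immunoproteasomes, was higher by 0.35 (SE 0.116, adjusted p = 0.0367), and Nfe2l2 by 0.32 (SE 0.0935, adjusted p = 0.0181). After R55, Psmb8 and Psmb9 had log2 fold changes of 0.32 (SE 0.281, unadjusted p = 0.270) and 0.28 (SE 0.208, unadjusted p = 0.193), which did not pass the test.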

How the data were processed

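RNA was measured in cortex blocks of 14 5xFAD mice. The authors made stranded mRNA libraries, used HISAT2 to map read pairs to GRCm39 and deposited values as FPKM, whose counting tool is not given in the sources used here. In the 27 libraries used, 100% of values were whole multiples of 1 fragment (tolerance 0.01), which gave fragments and gene lengths. A further 5 libraries of the table were not used here.

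Genes averaging 1 FPKM or more were fitted with limma 3.58.1 (R 4.3.3) on log2(FPKM + 1), with treatment and hemisphere as additive factors, an intensity trend, two-sided tests and Benjamini-Hochberg adjustment over 12976 genes. Libraries of one mouse counted separately. Interactions and comparisons within a hemisphere used 6 group means. The fit was tried on simulated counts with known changes. These held no length trend and no correlation within a mouse, so the trial does not cover either. Both hemispheres of a mouse share its label and were paired by it: over 13 pairs the correlation of their deviations over all genes had a median of 0.454 (-0.0787 to 0.648). Mice are separate animals.

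Alternatives were a pseudocount of 0.1, no filter, median-of-ratios size factors, removal of the length trend (lowess, span 0.3), a replicate block, 1 value per mouse, the label letters, only the compared treatments, limma voom on recovered fragments, each mouse left out and moderation without the intensity trend. Leaving out single libraries, and all alternatives for the label groups, were added after the data were seen. Values are given for members with the highest and lowest level of each role, the largest and smallest change of each comparison, and up to 3 per direction with the smallest p, and for other pathway genes for up to 2 per direction. Further names were chosen after their values were seen. The members and lists were chosen with earlier results of these data known. Python 3.11.15 was used for the rest.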

Additional observations from a re-analysis of the deposited data

Results flagged for a closer look

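In 22 of 138 groups of 4 or 5 libraries, over 23 items (the complex level and 22 members), 1 library stood apart from its group by a gap above the 95% critical value of Dixon's test. Chance gives about 1 in 20 groups, and since members vary together the groups are not independent. The injected library of R33 mouse AD was the highest in the complex level, at 6.036 against 5.534 to 5.568 in the other libraries of its group. The same library was highest in Psma2 (122.1 FPKM), Psma5 (52.61 FPKM), Psma7 (75.79 FPKM), Psmb1 (182.1 FPKM), Psmb10 (53.94 FPKM against 22.9 to 28.74), Psmc1 (124.3 FPKM), Psmd3 (76.27 FPKM), Psmd4 (92.54 FPKM), Psmd7 (87.03 FPKM), Psmd10 (13.69 FPKM) and Psmd12 (56.54 FPKM against 40.57 to 43.49).

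The contralateral library of vehicle mouse J was highest in Psma2 (99.68 FPKM against 67.34 to 70.31), Psma3 (35.79 FPKM), Psma6 (86.04 FPKM), Psma7 (56.74 FPKM) and Psmb1 (135.1 FPKM). The contralateral library of R55 mouse Q was highest in Psma6 (111.6 FPKM against 62.65 to 69.3) and Psmb5 (56.92 FPKM against 31.27 to 38.3). The injected library of vehicle mouse AH was highest in Psmc5 (168.7 FPKM against 136.9 to 140.3) and lowest in Psmd11 (22.78 FPKM against 25.64 to 25.84), and that of R55 mouse AA highest in Psmc3ip (2.74 FPKM against 1.63 to 1.866). The test of a different drug effect between hemispheres called 0 members.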

How the results depend on the processing

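For either drug against vehicle, for the drugs against each other and for the hemispheres, 0 members were called under every alternative run. The median log2 fold change of the members after R55 was 0.0361 with the length trend removed, with or without a replicate block for the mouse, and 0.0919 to 0.152 with each mouse left out. The number at an unadjusted p under 0.05 ran from 1 to 13 over the mice left out, with 13 without AD, 10 without R and 9 without J, was 1 with the replicate block, 0 with the block and the length trend removed, and 7 with only R55 and vehicle fitted. Over all 12976 tested genes that number was 1096 in the main fit, 1660 without AD, 1079 without R and 1674 without J. It was 519 with the block, 352 with the block and the length trend removed, and 1382 with only R55 and vehicle fitted. After R33 the number of members was 1 and ran from 0 to 5 with each mouse left out. It was 5 without J (1655 of all genes) and 0 with the replicate block (292 of all genes). After R33 the median was 0.0214 with the length trend removed, 0.0242 with the length trend removed and the replicate block, 0.0221 in mice with 1-letter labels, and 0.0253 to 0.123 with each mouse left out. For R55 in the contralateral hemisphere it was 0.0298 with the length trend removed, with or without the block, and 0.0903 to 0.243 with each mouse left out, where 0.0903 also holds without the contralateral library of Q alone or with the injected library of AD.

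Values near 0 turned sign. Psmd11 after R55 was -0.0426 with the length trend removed, with or without the block, and -0.0514 in mice with 1-letter labels. Psmc3ip after R33 was -0.000124 with median-of-ratios size factors, -0.0762 with the length trend removed, -0.0719 with the block too, -0.0942 in mice with 1-letter labels, -0.0243 without the injected library of AD, with or without the contralateral library of Q, and -0.0669 to 0.085 with each mouse left out. For R55 against R33, Psma6 was 0.0633 and Psmd10 0.0315 in mice with 1-letter labels and 0.0202 and 0.0355 without the injected library of AD. With each mouse left out Psma6 was -0.0727 to 0.0192, Psmd10 -0.0691 to 0.0529 and Psmd11 -0.0648 to 0.00171. Between label groups, members called were 6 with the length trend removed, with or without the block, and 2 to 10 with each mouse left out, 10 without Q. Of all 12976 genes, 3082 were called with the length trend removed and 1880 with the block too. With each mouse left out, 1552 (without P) to 2961 (without Q) of all genes were called. The causes were not tested. Psma8, Psmb11 and Psmc3ip rest on at most 79 fragments per library. The median SE of 0.0788 after R55 limited the changes that could be called.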
